A study of Mus musculus with 25 samples.

Results

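Interferon stimulated genes are the genes that cells switch on in answer to interferons, and 35 of them were followed here in cultured neonatal mouse cardiac myocytes. The list was made of genes known for this response, with earlier results of these data known when it was drawn up. Of its members, 31 had a probe set that the platform annotation ties to that gene alone, out of 19938 such genes on the array. Irf1 had 2 such probe sets, and the one with the stronger average signal was used. Isg15, Gbp2 and Igtp were measured only by probe sets shared with Gm9706, Gbp2b and Irgm2, and Ifi44 had no probe set named for it. The cultures came from wild type (WT) mice and from transgenic (TG) mice that overexpress CHF1/Hey2, a transcriptional repressor, under the mlc2v promoter, which is active in ventricular myocytes. There were 5 WT and 6 TG cultures kept in serum free medium, and 7 WT and 7 TG cultures exposed to 20% fetal bovine serum for 24 hours to induce hypertrophy, each culture on its own Affymetrix Mouse Gene ST array. The deposited values are normalized intensities on the log2 scale, so a difference of 1 is a doubling of signal. The study's methods count independent cultures without saying whether these came from separate litters, and each p therefore measures the spread between these cultures.

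Interferons are secreted by cells that sense foreign or misplaced nucleic acid. Type I interferon binds the Ifnar1 and Ifnar2 receptor, the kinases Jak1 and Tyk2 then signal to a complex with Stat2 and Irf9 that binds the interferon response motif in the promoters of target genes. Interferon gamma acts through gamma activated motifs. The products block viral translation and replication, sense RNA, feed back on the pathway and mark infected cells. Myocytes, fibroblasts and macrophages all carry this pathway.

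The arrays of the serum free cultures had medians of 4.99 to 5.09 and SDs over probe sets of 2.10 to 2.14, and those of the serum treated cultures medians of 5.21 to 5.36 and SDs of 2.54 to 2.60. Because of this difference in scale, the genotypes were set against each other inside a serum condition, and serum was compared only by rank within an array. Hey2 was at 7.08 to 8.55 in TG against 6.12 to 6.37 in WT myocytes without serum, and at 7.94 to 9.36 against 6.59 to 7.36 with serum, so no TG array overlapped a WT array. The 14 cardiac myocyte markers had a mean level of 10.6 to 12.1 in all arrays, and the 22 measured macrophage markers 5.13 to 6.75. The list of 11 lymphocyte markers had a mean of 3.66 to 4.29, with 10 of its genes under a log2 mean of 5, here called dim. The fifth WT culture without serum stood apart from all others in the interferon stimulated genes, and the main results that rest on it are given with and without it.

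The promoters show what the members share beyond their name. The RefSeq promoter table of build GRCm38.p6, which holds windows of 300 bases around start sites, mostly upstream, had 30 promoters for 23 of the 31 measured members. The interferon response motif was searched as GAAANNGAAA on both strands, where it reads TTTCNNTTTC on the other, and overlapping copies were counted. It was present for 13 of the 23 members (56.5%), against 3.99% of the 27025 genes in the table. The gamma activated motif TTCNNNGAA, which reads the same on both strands, was present for 7 of 23 (30.4%), against 9.55% of genes. The following stretches belong to genes that the results below turn on, written along the strand of the gene with the interferon response motif in capitals.
Ifit1, chr19:34640765-34640833, plus strand: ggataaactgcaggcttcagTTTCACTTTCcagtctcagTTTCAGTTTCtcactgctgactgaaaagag
Ifit3, chr19:34583353-34583436, plus strand: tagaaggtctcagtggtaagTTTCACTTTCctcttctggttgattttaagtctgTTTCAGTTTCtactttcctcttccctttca
Ddx58, chr4:40239794-40239843, minus strand: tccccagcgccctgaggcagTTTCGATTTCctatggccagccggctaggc
Trim30a, chr7:104465200-104465249, minus strand: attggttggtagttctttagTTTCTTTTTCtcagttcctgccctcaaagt
Irgm1, chr11:48871415-48871470, minus strand: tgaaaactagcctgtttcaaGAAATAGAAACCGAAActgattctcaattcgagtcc
Bst2, chr8:71537567-71537622, minus strand: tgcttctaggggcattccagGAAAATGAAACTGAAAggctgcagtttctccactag
Rsad2, chr12:26456543-26456592, minus strand: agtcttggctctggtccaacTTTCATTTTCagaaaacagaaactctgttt
Ifih1, chr2:62646206-62646243, minus strand: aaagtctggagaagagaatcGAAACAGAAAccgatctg
Ifit1 and Ifit3 each held 2 separate copies, and the longer capitals of Irgm1 and Bst2 are 2 copies that overlap. The motif began at position -104 from the start site in Ifit1, at -156 in Ifit3, at -30 in Irgm1 and at -130 in Bst2, and after the start site in Ddx58 and Ifih1. The other members with the motif were Eif2ak2, Gbp3, Oas1a, Oas3 and Stat2. No match was found in these windows for Cmpk2, Ifi35, Ifit2, Irf1, Irf7, Irf9, Isg20, Oasl1, Oasl2 and Xaf1. A match is a stretch of letters and not evidence of binding. Some members are also neighbours in the genome, within 200 kb of each other: Ifit1 with Ifit2 and Ifit3, Mx1 with Mx2, Rsad2 with Cmpk2, Oasl1 with Oasl2, Oas1a with Oas2 and Oas3, and Gbp2 with Gbp3.

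For 16 of the 31 members, the mean over the 25 arrays was under 5, as it was for 16985 of all 35557 probe sets. These dim members included Ifit1, Ifit3, Mx1, Mx2, Rsad2 and Rtp4. The strongest probe sets were those of Irgm1, a GTPase of resistance to intracellular microbes, at a mean of 7.39, Ddx58, the cytosolic RNA sensor also called RIG-I, at 7.14, and Ifit2, which binds viral RNA, at 7.11. Signals of different probe sets do not rank the transcripts by amount. The mean of the 31 members was 5.27 to 5.75 in WT and 5.22 to 5.39 in TG myocytes without serum, and 5.11 to 5.22 in each genotype with serum.

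Without serum, most members rose and fell together from culture to culture. After the mean of each group was taken out, the median Pearson r over the 465 pairs of members was 0.44 across the 11 arrays, and 79.1% of pairs were above 0, while the median over all pairs of genes was 0.012. With serum the same median was 0.018 over 14 arrays, with 52.0% of pairs above 0 and a median of 0.0001 over all genes. All points of a pair share an array and its scaling, and no p is attached to these values. Without serum, 13 members had an r over 0.8 with the mean of the other members. The highest were Irf7, a transcription factor that drives interferon production, at 0.97, Trim30a, an interferon-induced TRIM protein, at 0.95, and Ddx58 at 0.94. The lowest were Isg20 at -0.28, Ifi35 at -0.24, Oasl1 at -0.05 and Mx1 at 0.0015. With serum no member reached 0.5, and the highest was Dhx58, a relative of Ddx58 that modulates RNA sensing, at 0.49. The co-variation without serum was weaker without the fifth WT culture. When it was left out, the median r fell to 0.18 and 62.2% of pairs were above 0, while the median over all genes was 0.0079. The 5 members that kept an r over 0.8 were Ifit1, Ifit3, Oasl2, Irf7 and Ddx58. How many of all genes had an r over 0.8 with the mean of the members was not counted. The counts of 13 and 5 members therefore have no share over all genes beside them.

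**Figure D1:**
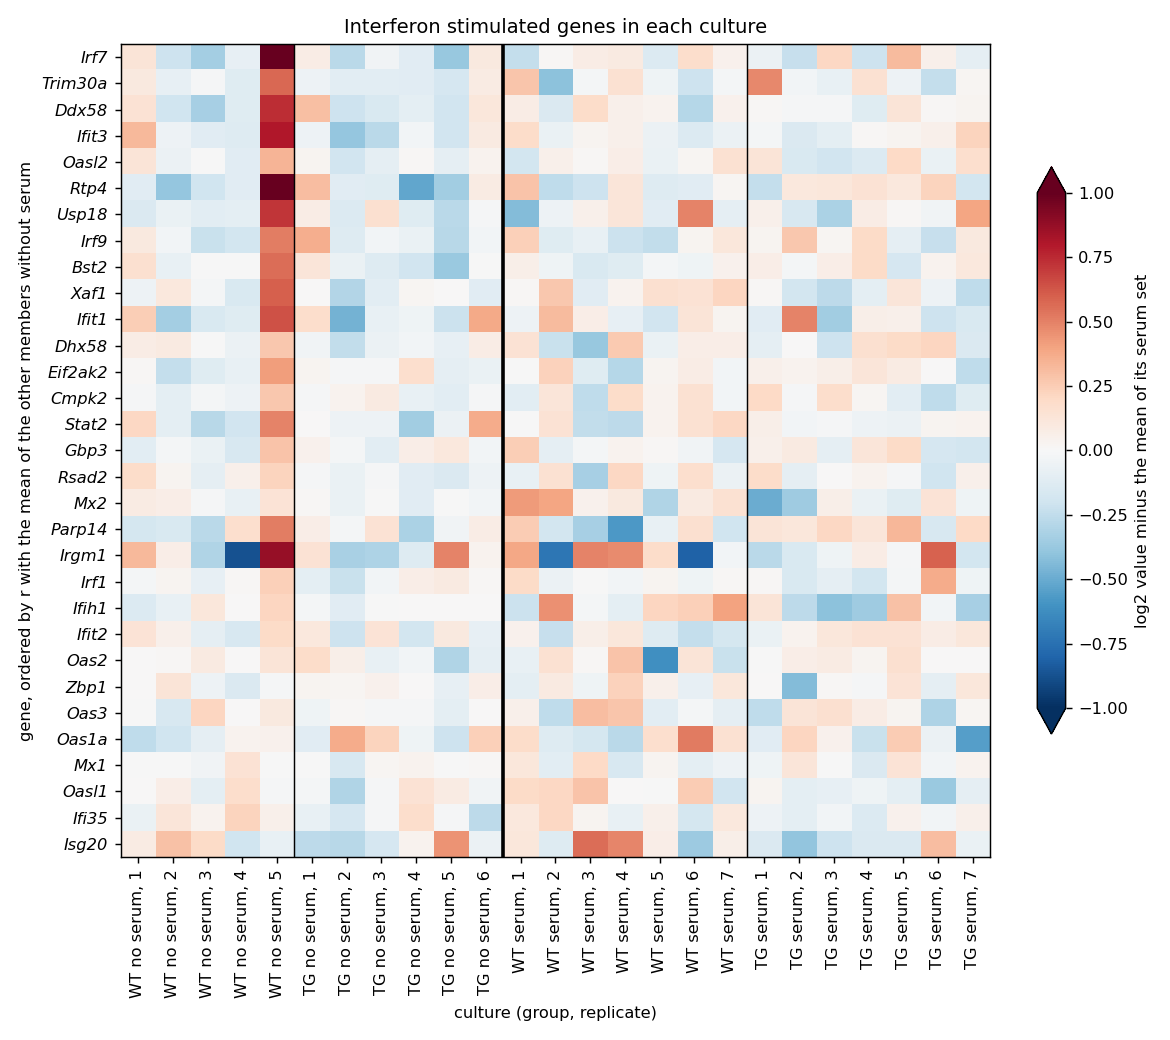
Log2 value of each of 31 interferon stimulated genes (rows) in each of 25 cultures (columns), minus the mean of the gene over its serum set, with the colour scale ending at 1 in both directions. The column of the fifth WT culture without serum is raised for most genes, by up to 1.73 against the other WT cultures for Rtp4, and no column with serum shows such a pattern.

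In the fifth WT culture without serum, 23 of the 31 members had their highest value of the 11 arrays. That array was the highest for 7.1% of all probe sets. With serum no culture was the highest for more than 5 members, which the third WT culture was, at a background of 9.58%. Against the mean of the other 4 WT cultures, 27 of 31 members were higher (40.7% of all genes), the median difference was 0.35 (-0.022 over all genes), and 14 members were higher by more than 0.5 (2.28% of genes). This culture was singled out after its values were seen, so these counts describe it and no test is attached.

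Among the regulators, Irf7 was at 5.67, 5.33, 5.20, 5.46 and 6.65 in the 5 WT cultures without serum and at 5.62, 5.27, 5.50, 5.43, 5.16 and 5.64 in the 6 TG cultures. The fifth WT value lay 1.24 above the mean of the other WT cultures, a 2.36-fold signal, and the other 10 cultures overlapped. Usp18, a protease that removes Isg15 from proteins and restrains the receptor, was at 5.42 in that culture and at 4.56 to 4.64 in the other WT cultures. Irf9 and Stat2, partners in the complex that binds the interferon response motif, were raised there by 0.59 each, and Irf1 by 0.26.

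Rtp4, an interferon-induced receptor transporter protein, showed the largest gap. Its values were 4.56, 4.29, 4.47, 4.56 and 6.20 in WT and 4.98, 4.56, 4.56, 4.16, 4.33 and 4.75 in TG myocytes without serum, so the fifth WT culture was 3.31 times the mean of the other WT cultures. Among the Ifit genes, Ifit3, which works in complexes with Ifit1 and Ifit2, was at 5.06, 4.69, 4.62, 4.61 and 5.53 in WT and at 4.69, 4.35, 4.47, 4.71, 4.55 and 4.82 in TG myocytes. Here the first WT culture was second to the fifth, and the other 3 WT cultures lay within the TG range. Ifit1, whose product binds viral messenger RNA, was raised by 0.73. Ifit2, raised by 0.20, was at 7.12, 7.03, 6.90, 6.83 and 7.17 in WT and at 7.09, 6.78, 7.12, 6.80, 7.08 and 6.90 in TG myocytes without serum, so its groups overlapped.

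Of the sensors, Ddx58 was at 7.34, 6.99, 6.86, 7.07 and 7.93 in WT and at 7.49, 6.99, 7.04, 7.09, 7.00 and 7.30 in TG myocytes without serum. Ifih1, which senses long RNA and is also called MDA5, was raised by 0.24 in the fifth WT culture, and Dhx58 by 0.24. Xaf1, a proapoptotic binding partner of XIAP, was raised by 0.63, Parp14, an ADP-ribosyltransferase, by 0.62, Bst2, the tetherin that holds virus at the cell surface, by 0.54, and the RNA-dependent kinase gene Eif2ak2 by 0.52. Gbp3, a guanylate-binding protein, was raised by 0.37, and Cmpk2, a nucleotide kinase of mitochondria, by 0.31. Trim30a was at 4.26, 4.09, 4.15, 4.04 and 4.74 in WT cultures without serum and at 4.11, 4.06, 4.06, 4.05, 3.995 and 4.24 in TG cultures, so that the fifth WT culture stood above the other 10, which overlapped.

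The exceptions in this culture were Zbp1, Oas3, Ifi35, Mx1, Oasl1, Oas2, Oas1a and Isg20, for which another array was the highest. Ifi35 encodes an interferon-induced leucine zipper protein, and Mx1 a dynamin-like antiviral GTPase. Their differences from the mean of the other WT cultures ran from -0.17 for Isg20, an exonuclease, to 0.17 for Oas1a, whose enzyme makes the oligoadenylates that activate RNase L. Thus Oas1a, Oas2 and Oas3 differed by at most 0.17, while Oasl2, a synthetase-like gene, was raised by 0.35 and its neighbour Oasl1 was at -0.05. The members with the interferon response motif in a listed promoter had a median difference of 0.54 (11 of 13 highest in this culture), those with a promoter and no motif 0.29 (7 of 10), and those without a listed promoter 0.18 (5 of 8). These groups were not tested against each other.

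The same culture was also the highest of its group in markers of macrophages. Of the 22 measured markers, 19 were above all other WT cultures without serum, with a median difference of 0.95 from their mean. Lyz2, a lysozyme of phagocytes, was at 11.4 against 7.00 to 10.1, a 5.98-fold signal. The lysosomal protease Ctss was at 10.3 against 7.09 to 8.89, and the pore-forming Mpeg1 at 8.04 against 5.66 to 6.87. The exceptions were Cx3cr1, Cd163 and Aif1. The mean of the list was 6.70 there, in a range of 5.30 to 6.70 over WT and 5.13 to 6.36 over TG cultures without serum, 5.75 to 6.75 over WT and 5.99 to 6.75 over TG cultures with serum. In bulk RNA of a culture, more cells of a type and more RNA per cell cannot be told apart.

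The macrophage markers and the members were set side by side in the cultures where the markers were highest. Relative to the mean of its set, the fifth WT culture without serum was at 0.94 for the macrophage list and 0.40 for the members. The sixth TG culture without serum was at 0.59 and 0.03. With serum, the first WT culture was at 0.50 and 0.07 and the first TG culture at 0.50 and -0.01, and this WT culture had the highest mean of the members in its group. The fifth WT culture was also the highest of the 5 in the 12 fibroblast markers, at a mean of 8.69 in a WT range of 7.62 to 8.69, and at 0.05 from the set mean in the cardiac myocyte markers. The part of macrophages or fibroblasts in the raised members was not tested.

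**Figure D2:**
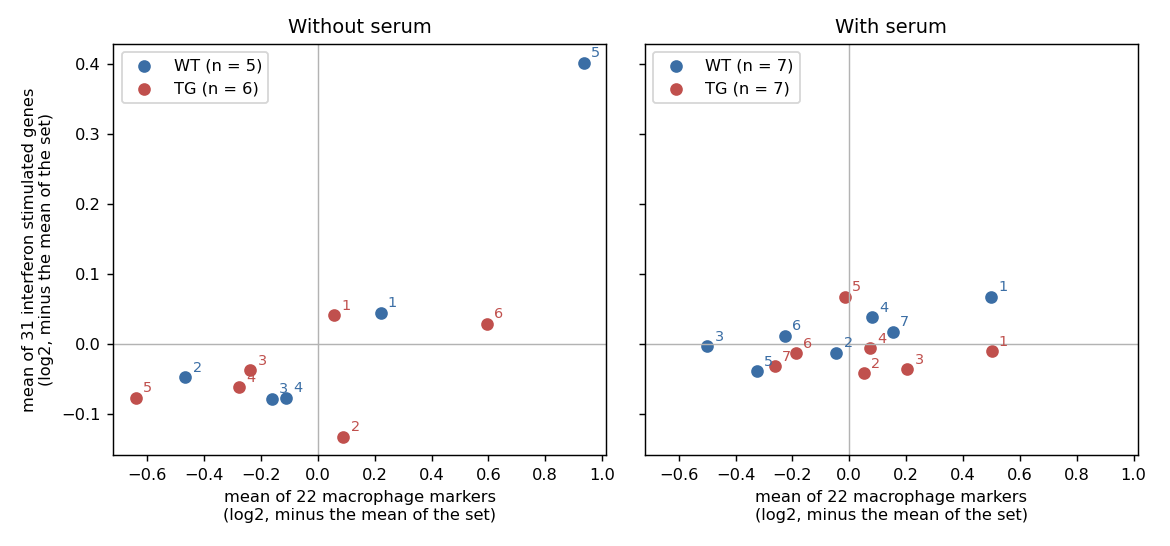
Mean of 31 interferon stimulated genes against the mean of 22 macrophage markers in each culture, both in log2 minus the mean of the serum set, with the replicate number beside each point. The fifth WT culture without serum sits at 0.94 and 0.40, and the cultures at about 0.50 or more on the macrophage axis otherwise sit between -0.01 and 0.07 on the other.

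Of the genes outside the list, those whose deviations from the group means were most like the mean of the members over the 25 arrays were Unc93b1 (r = 0.83), which brings nucleic acid sensing Toll-like receptors to endosomes, and Lilrb4a (0.83), an inhibitory receptor of myeloid cells. Next came Lgals3bp (0.82), a secreted galectin-binding protein, Lipa (0.81), the lysosomal acid lipase, and Colec12 (0.80), a scavenger receptor. Ms4a7 (0.79), Col6a1 (0.78), Cybb (0.78), which is the phagocyte NADPH oxidase, Sp100 (0.77) and Lmo2 (0.77) completed the 10. These r values are descriptive, and the fifth WT culture without serum is among their points.

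Individual members followed other cell markers instead. Over the 25 arrays with group means taken out, Irgm1 had an r of 0.95 with the mean of the fibroblast markers, and it was the only member above 0.8 there, while 2.39% of other genes were. Irgm1 was at 7.74, 7.48, 7.12, 6.55 and 8.29 in WT cultures without serum, where the fibroblast mean was 8.66, 8.24, 7.88, 7.62 and 8.69. In WT cultures with serum it was at 7.76, 6.65, 7.87, 7.85, 7.56, 6.57 and 7.35, beside a fibroblast mean of 8.52, 7.56, 8.43, 8.40, 8.11, 7.52 and 7.93. The cultures low in one were low in the other. Irgm1 was at 7.56, 7.09, 7.10, 7.29, 7.91 and 7.45 in TG cultures without serum and at 7.10, 7.22, 7.33, 7.45, 7.36, 7.96 and 7.19 in TG cultures with serum. The r was 0.95 in each serum set and 0.95 without the fifth WT culture. Isg20 ran against the cardiac myocyte markers, with an r of -0.88 over 25 arrays and -0.89 in each set. How many of all genes were as low with the myocyte markers was not counted. Isg20 had an r of 0.77 with the 20 endothelial markers. It was at 5.66, 5.65, 5.76, 5.96, 6.37 and 5.86 in TG cultures without serum, where the cardiac myocyte mean was 11.54, 11.69, 11.58, 10.97, 10.56 and 11.50, so that Isg20 was highest where the myocyte markers were lowest. With the macrophage markers, no member exceeded 0.8 over the 25 arrays (0.266% of other genes did), and the highest were Bst2 at 0.74 and Trim30a at 0.71. In the set without serum, which holds the fifth WT culture, r ran from -0.56 for Ifi35 to 0.90 for Bst2. It was 0.87 for Trim30a, 0.83 for Irf7 and Stat2, 0.82 for Rtp4, 0.81 for Ddx58 and 0.80 for Ifit1. How many of all genes reached such values in that set was not counted. With serum r was 0.34 for Bst2 and 0.60 for Trim30a, and no member was higher than Trim30a. Over both sets with only the fifth WT culture without serum left out, r was 0.60 for Bst2 and 0.59 for Trim30a. The set without serum alone was not recomputed without that culture. Irgm1 and Isg20 were singled out after their values were seen, the points share arrays, and a source of the transcripts in any cell type was not tested.

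**Figure D3:**
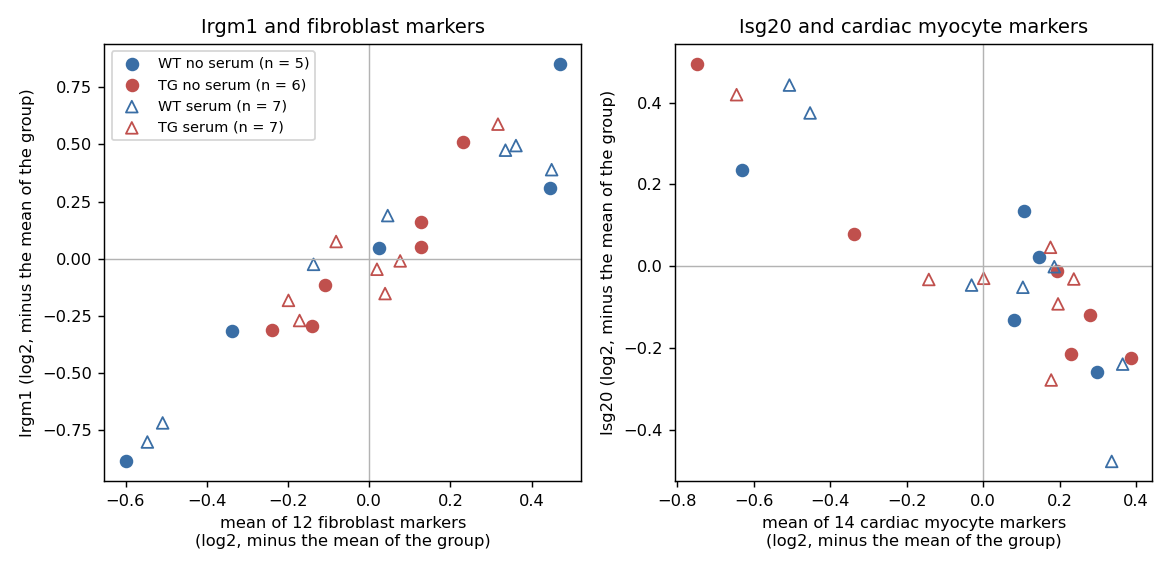
Irgm1 against the mean of 12 fibroblast markers (left) and Isg20 against the mean of 14 cardiac myocyte markers (right) in 25 cultures, in log2 minus the mean of the group, circles without and triangles with serum. Irgm1 rises with the fibroblast markers in all groups (r = 0.95), and Isg20 falls as the myocyte markers rise (r = -0.88).

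To ask whether CHF1/Hey2 alters the interferon stimulated genes in unstimulated myocytes, TG and WT cultures without serum were compared with limma over all 35557 probe sets with Benjamini-Hochberg adjustment. No member was called at an adjusted p under 0.05, and neither was any other probe set (0%). Hey2 itself, higher by 1.58 in TG myocytes with no overlap of arrays, had an adjusted p of 0.853 in this limma comparison. A missing call here therefore does not show that a gene was unchanged. At an unadjusted p under 0.05 there was 1 member of 31, Rsad2, against 5.64% of all probe sets (3.33% lower in TG). Rsad2 encodes viperin, an enzyme that makes a chain-terminating nucleotide. It was at 5.02, 4.87, 4.75, 4.89 and 5.06 in WT and at 4.83, 4.78, 4.83, 4.73, 4.70 and 4.79 in TG myocytes, so the groups overlapped, with every TG value below 4 of the 5 WT values. The difference was -0.14 (SE 0.056, adjusted p = 0.854), and -0.11 without the fifth WT culture. With serum, Rsad2 was at 3.81, 4.09 and 4.34 (lowest, median and highest) in WT and at 3.94, 4.14 and 4.32 in TG myocytes.

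Without serum, 27 of 31 members were lower in TG myocytes and 4 were higher, as were 54.7% and 45.3% of all probe sets, and the median difference was -0.073 (-0.0083 over all probe sets). Oas1a, Eif2ak2, Gbp3 and Zbp1 were the members that were higher. Without the fifth WT culture, 16 were lower and 15 higher and the median was -0.0097, so the lower count rested on that culture. The widest interval was that of Rtp4, which differed by -0.26 (95% interval -0.94 to 0.42), followed by Irgm1 at -0.04 (-0.63 to 0.56) and Irf7 at -0.23 (-0.72 to 0.27). Next were Ifit1 at -0.10 (-0.51 to 0.32), Ddx58 at -0.09 (-0.47 to 0.30) and Ifit3 at -0.31 (-0.67 to 0.05). These 6 genes were all raised by over 0.5 in the fifth WT culture, and the differences of Rtp4, Irf7, Ddx58 and Irgm1 were above 0 when the fifth WT culture was left out. For no member did all TG arrays lie on the same side of all WT arrays (0.172% of probe sets above and 0.231% below). The macrophage markers, of which 20 of 22 were lower in TG cultures with a median of -0.15, moved the same way, and their part was not tested. The lower mean of that list in TG cultures rested on the fifth WT culture too. It was 5.85 in WT and 5.70 in TG cultures, with the fifth WT culture at 6.70. The median over cultures was 5.65 in WT and 5.68 in TG.

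With serum, TG and WT myocytes did not differ in any member at an adjusted p under 0.05 in limma, where 0.00844% of probe sets were called. At an unadjusted p under 0.05 there were 5 members, against 10.7% of probe sets, and 2 of the 5 were higher (4.39%) and 3 lower (6.31%) in TG myocytes. Ifit2 was at 7.25, 6.98, 7.26, 7.31, 7.08, 6.97 and 7.03 in the 7 WT cultures and at 7.14, 7.24, 7.31, 7.35, 7.35, 7.28 and 7.32 in the 7 TG cultures. Its difference was 0.16 (SE 0.067, adjusted p = 0.429), with 4 WT cultures below every TG culture and 3 within their range. Parp14 was at 5.46, 5.03, 4.87, 4.63, 5.13, 5.37 and 5.01 in WT and at 5.34, 5.32, 5.42, 5.33, 5.54, 5.05 and 5.41 in TG myocytes, a difference of 0.27 (SE 0.115, adjusted p = 0.430), and the WT cultures spread more widely than the TG cultures.

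The 3 others were lower in TG myocytes with serum. Oasl1, which in mice restrains Irf7 translation, was at 6.29, 6.31, 6.38, 6.10, 6.10, 6.35 and 5.91 in WT and at 6.12, 6.00, 6.02, 6.05, 6.00, 5.73 and 6.01 in TG myocytes, with a difference of -0.21 (SE 0.081, adjusted p = 0.386). Xaf1 was at 4.83, 5.09, 4.71, 4.85, 4.98, 4.96 and 5.04 against 4.83, 4.64, 4.56, 4.72, 4.94, 4.77 and 4.56, with a difference of -0.21 (SE 0.075, adjusted p = 0.372). These groups overlapped, with the lowest values in TG and the highest in WT cultures. Mx2, a relative of Mx1, was at 3.10, 3.07, 2.72, 2.77, 2.37, 2.76 and 2.82 against 2.18, 2.32, 2.74, 2.60, 2.55, 2.81 and 2.63, a difference of -0.25 (SE 0.119, adjusted p = 0.465) in a dim probe set. Without serum, the lowest, median and highest values of Oasl1 were 5.81, 5.91 and 6.08 in WT and 5.60, 5.89 and 6.05 in TG myocytes, and those of Xaf1 were 4.92, 5.05 and 5.67 against 4.78, 5.02 and 5.09. Those of Mx2 were 3.92, 4.06 and 4.13 against 3.89, 3.98 and 4.01, and those of Parp14 4.90, 5.01 and 5.67 against 4.85, 5.19 and 5.31. The genotypes overlapped for all 4 genes.

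Over all members, 15 were higher and 16 lower in TG myocytes with serum (43.5% of probe sets were higher and 56.5% lower), with a median of -0.0050 (-0.019 over all probe sets). This split depended on scaling. With each array centred on its median, which moved the median of all probe sets to 0.031, 22 members were higher and 9 lower, and with quantile normalization again 21 were higher and 10 lower. No member had TG arrays all above or all below the WT arrays (0.101% and 0.155% of probe sets). The regulators lay close to 0, at -0.00 for Irf7 (95% interval -0.20 to 0.19), -0.01 for Stat2 (-0.17 to 0.15), 0.08 for Irf9 (-0.11 to 0.27) and -0.03 for Irf1 (-0.20 to 0.14). Among the most correlated members, with serum the lowest, median and highest values of Rtp4 were 4.05, 4.19 and 4.59 in WT and 4.07, 4.42 and 4.53 in TG myocytes. Those of Ifit3 were 3.94, 4.02 and 4.26 against 3.93, 4.09 and 4.30, and those of Ddx58 6.81, 7.14 and 7.27 against 6.98, 7.10 and 7.22, so the genotypes overlapped in all 3 genes. Differences within these intervals were not detectable with 7 cultures of each genotype. The intervals of Irf7, Stat2 and Irf9 were wider without serum.

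**Figure D4:**
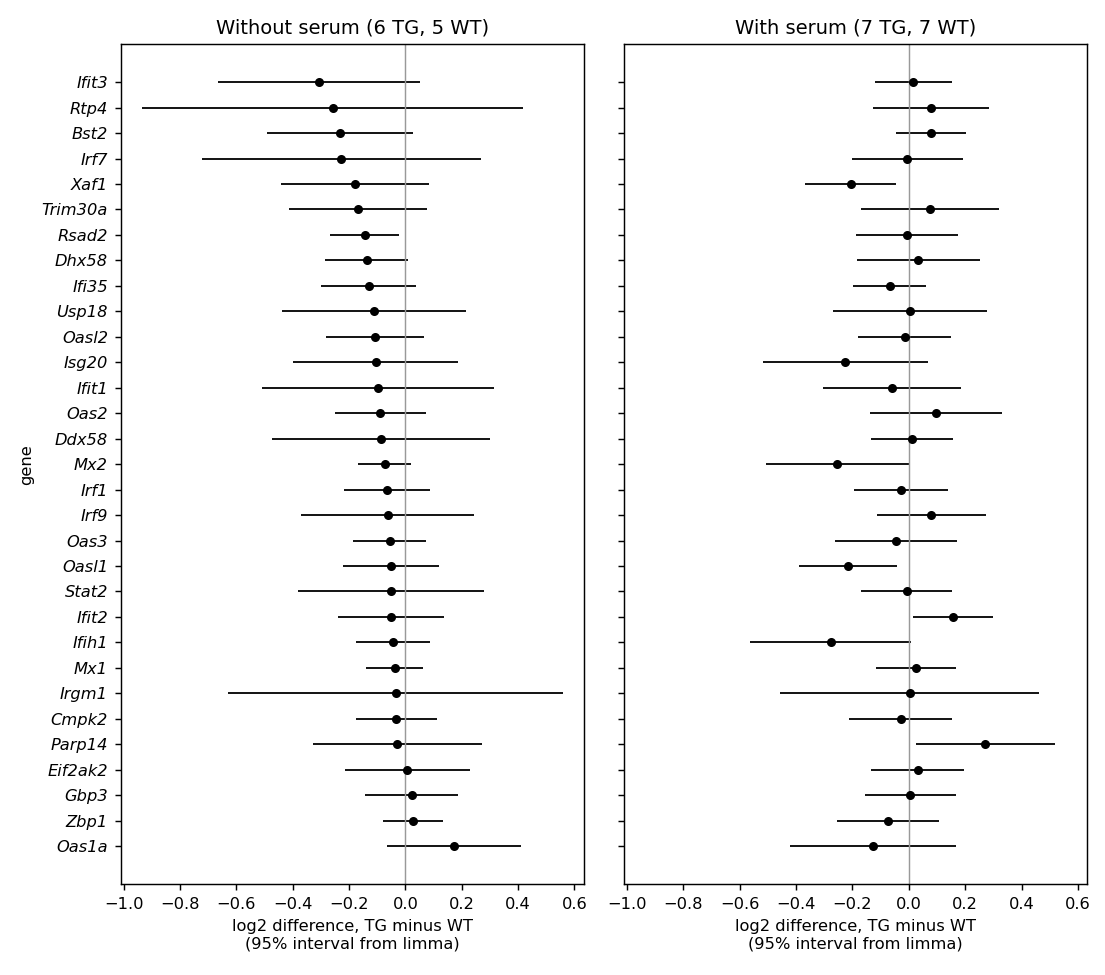
Log2 difference between TG and WT myocytes with its 95% interval from limma for each of 31 interferon stimulated genes, without serum (left) and with serum (right). No member passed an adjusted p under 0.05 in either set, and the widest intervals without serum are those of Rtp4, Irgm1 and Irf7.

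Whether the TG effect differed between the serum sets was tested with an interaction term over all 25 arrays. No member was called (0.00281% of probe sets), and at an unadjusted p under 0.05 there was 1, Bst2, against 4.26% of probe sets (1.68% above 0). Bst2 was at 6.95, 6.72, 6.78, 6.78 and 7.35 in WT and at 6.91, 6.72, 6.66, 6.60, 6.42 and 6.78 in TG myocytes without serum. With serum its lowest, median and highest values were 6.80, 6.91 and 7.01 in WT and 6.79, 7.02 and 7.14 in TG myocytes, and the genotypes overlapped in both sets. The TG minus WT difference of Bst2 was -0.23 without serum and 0.08 with serum, and the difference between these was 0.31 (adjusted p = 1.00 in limma). The interaction was above 0 in 23 of 31 members (45.9% of probe sets), with a median of 0.063, and in 12 when the fifth WT culture without serum was left out.

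Serum was then compared with no serum by the percentile rank of each probe set among all probe sets of its array, from 0 to 100. Members of the list mostly held a lower rank with serum, and Ifih1 was the main exception. In WT myocytes, 20 of 31 members were lower and 1 was higher at an adjusted p under 0.05 in limma, where 29.2% of probe sets were lower and 28.8% higher. In TG myocytes 16 were lower and 2 higher, against 30.1% and 29.8%. The median change of the members was -5.03 points in WT and -3.85 in TG myocytes (0.077 and 0.080 over all probe sets). Without the fifth WT culture without serum, 16 were lower and 2 higher in WT myocytes. Any difference in processing between the sets that moves ranks cannot be told apart from serum.

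The largest falls were those of Mx1, Oasl2, Rsad2, Ifit3, Mx2 and Zbp1, a sensor of Z-form nucleic acid that triggers cell death. Mx1 held ranks 24.4 to 28.6 in WT cultures without serum and 7.56 to 13.2 with serum, a change of -16.1 points (SE 1.06, adjusted p = 1.64e-11), and -14.8 in TG cultures (SE 1.01). Its probe set was dim in all groups. Oasl2 fell from ranks of 59.9 to 65.3 to ranks of 44.8 to 49.0 in WT cultures, a change of -15.1 (SE 0.991), and by 13.6 in TG cultures. Rsad2 fell by 14.5 points in WT and by 11.8 in TG cultures. For these 3 genes no culture with serum overlapped a culture without serum.

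Zbp1 changed by -12.8 and -14.1 points, Mx2 by -13.6 and -15.3, and Ifit3 by -14.5 and -8.89 in WT and TG cultures. The regulators Stat2 (-5.72 and -5.31), Irf1 (-5.26 and -4.74), Irf9 (-5.32 and -3.74) and Irf7 (-9.28 and -6.62) were lower in both genotypes. On the deposited log2 scale instead of ranks, Stat2, Irf1, Irf9 and Ddx58 passed in neither genotype, and Irf7 in WT myocytes only. Ranks did not overlap, with all cultures with serum below, for 12 members in WT (18.8% of probe sets) and 8 in TG myocytes (18.5%), the latter being Ifit3, Mx1, Mx2, Oasl2, Stat2, Rsad2, Ddx58 and Zbp1. All 8 were among the 12. Of the 31 members with a probe set of their own, Ifih1 alone had all its ranks with serum above those without, in each genotype. This held for 17.1% of probe sets in WT and 16.7% in TG myocytes.

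Ifih1 was the member that rose in both genotypes. Its rank was 54.2 to 58.6 without and 63.7 to 70.8 with serum in WT myocytes, a change of 11.5 points (SE 1.26, adjusted p = 6.64e-08), and 54.8 to 56.3 and 62.1 to 68.9 in TG myocytes, a change of 8.77 (SE 1.20). Its log2 values showed the same gap, at 5.32 to 5.67 against 6.49 to 7.16 in WT cultures. Trim30a rose in TG myocytes by 7.13 (adjusted p = 0.00988), with ranks of 27.2 to 33.7 and 33.4 to 43.1 that overlapped, and changed by 1.76 in WT myocytes (adjusted p = 0.551). Irgm1 changed by -5.03 and -4.83 and did not pass (adjusted p = 0.123 and 0.116). The 3 RNA sensors thus did not move together, since Ddx58 fell by 6.08 and 5.06 points, and Dhx58 fell by 6.58 in WT myocytes while its change of -2.60 in TG myocytes did not pass.

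Dim and brighter members gave like counts. In WT myocytes 10 of 16 dim members were lower, where 31.8% of dim probe sets were, and 10 of 15 brighter members, where 26.8% of brighter probe sets were. In TG myocytes the counts were 8 of 16 and 8 of 15, against 32.8% and 27.7%. In both genotypes 15 members were lower, which is 75% of those lower in WT and 93.8% of those lower in TG myocytes, and the shares over all probe sets were 88.2% and 85.5%. The 4 probe sets shared between a member and another gene did not all move the same way. That of Oas1a and Oas1g rose by 12.9 points in WT and 11.1 in TG myocytes, and that of Isg15, a ubiquitin-like modifier, and Gm9706 rose by 7.57 and 6.96. The probe set of the GTPase genes Igtp and Irgm2 rose by 3.79 in TG myocytes (adjusted p = 0.0328) and changed by 0.34 in WT myocytes (adjusted p = 0.870). That of Gbp2 and Gbp2b, guanylate-binding proteins, fell by 8.63 and 7.21. In each genotype, all ranks with serum lay above those without for Isg15 and Gm9706, and below them for Gbp2 and Gbp2b.

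**Figure D5:**
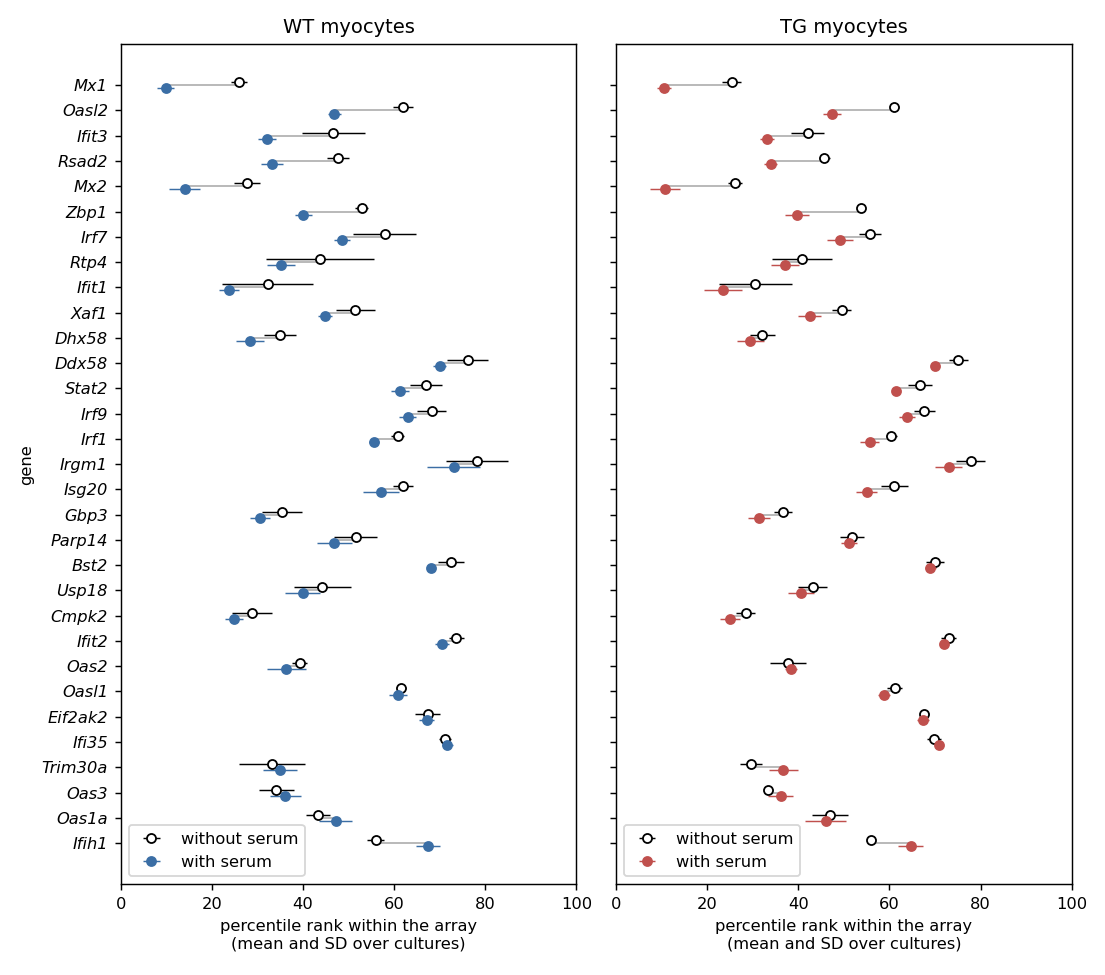
Percentile rank within the array (0 to 100) of each of 31 interferon stimulated genes without serum (open) and with serum (filled) in WT (left) and TG (right) myocytes, as the mean and SD over cultures, ordered by the change in WT myocytes. Most members sit lower with serum, by up to 16.1 points for Mx1, and Ifih1 sits higher by 11.5 points in WT and 8.77 in TG myocytes.

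The rest of the pathway was read from lists of its other genes. No gene of any of these lists was called between TG and WT myocytes in either set. An unadjusted p under 0.05 in limma was met by 5.64% of all probe sets without serum and by 10.7% with serum. Of 11 measured interferon genes of 14 listed, 10 were dim. Ifnb1 was lower in TG myocytes at an unadjusted p under 0.05 in both sets, by -0.11 (adjusted p = 0.855) and -0.29 (adjusted p = 0.292), and Ifna5 without serum by -0.23. With serum, Ifna4 and Ifne were lower and Ifna2 higher at that level. The receptors and kinases, with 12 of 14 measured, had none under 5. Among them Ifnar2, a receptor chain, was higher in TG myocytes with serum by 0.12, Socs1, a brake on Jak kinases, lower by -0.20, and Pias1, a SUMO ligase, higher without serum by 0.13, each at an unadjusted p under 0.05. By rank, 7 of the 12 were higher and 2 lower with serum in WT myocytes, and 5 and 2 in TG myocytes, where 28.8% of probe sets were higher and 29.2% lower in WT and 29.8% and 30.1% in TG myocytes. These receptor counts were not tested against those of the members.

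Of the 16 sensing genes measured of 20, Tlr4 alone had an unadjusted p under 0.05, higher by 0.25 in TG myocytes with serum. Of 13 antigen presentation genes of 15, Nlrc5, which drives MHC class I genes, was lower by -0.20 and Calr higher by 0.11 in TG myocytes without serum at that level. With serum, the peptide transporter genes Tap1 (-0.31) and Tap2 (-0.19) and the immunoproteasome gene Psmb9 (-0.22) were lower at that level. Erap1, which trims peptides, was higher (0.24). That level was passed by 10.7% of all probe sets.

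Another 36 of 41 listed interferon-induced genes were measured. By rank with serum, 21 of them were lower (29.2% of probe sets) and 5 higher (28.8%) in WT myocytes, and 20 lower (30.1%) and 7 higher (29.8%) in TG myocytes. Between genotypes without serum, Rnf213 (-0.41), Trim34a (-0.17), Oas1b (-0.11) and Uba7 (-0.09), which activates Isg15, were lower in TG myocytes at an unadjusted p under 0.05 and Ube2l6 (0.13) was higher. With serum, the chemokine Cxcl10 (-0.35) and Pml (-0.33) were lower and Dtx3l (0.25), a partner of Parp9, was higher at that level. It was passed by 10.7% of all probe sets. Of these 36, 29 were lower in TG myocytes without serum (54.7% of probe sets) and 23 with serum (56.5%), with medians of -0.073 and -0.033. The values without serum include the fifth WT culture, which was the highest of its group in this list as well. Its mean was 6.45 in a WT range of 6.06 to 6.45, against 6.01 to 6.21 in TG cultures.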

How the data were processed

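Total RNA of 25 cultures was hybridized to Affymetrix Mouse Gene 1.0 ST arrays. The deposited values are log2 intensities that the authors made with Expression Console 1.1 (Robust Multichip Analysis) for 35557 probe sets (21789 with 1 gene symbol, 1621 with several, 12147 unnamed here). Whether both serum sets were normalized together is not given in the sources used here. Precision is limited by how many arrays there are, since intensities carry no read depth.

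All probe sets were fitted with limma 3.58.1 in R 4.3.3 (1 mean per group, eBayes, Benjamini-Hochberg adjustment), within each serum set for TG against WT, and over 25 arrays for the interaction and the percentile ranks. Scripts were tested on simulated data. The members and lists were chosen with earlier results of these data known. Members were described by role, with values by culture or as lowest, median and highest for those with an unadjusted p under 0.05 between genotypes, the 3 brightest and the 3 most correlated with the other members over 25 arrays, and from other lists the genes with an unadjusted p under 0.05. Other genes were named after their values were seen. TG and WT cultures of the same number had residual correlations of -0.45 to 0.15 without and -0.36 to 0.062 with serum. Equal numbers need not mark a shared preparation, so these values cannot show whether cultures were paired. The alternatives were other normalizations, variance models, filters on dim probe sets, probe set choices, rank scales, a replicate block and leaving out each array.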

Additional observations from a re-analysis of the deposited data

Results flagged for a closer look

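A sample far from the others of its group was found in 14 of 128 groups of values tested (31 members and their mean in 4 groups, with the gap to the nearest sample set against the range), where chance gives about 1 in 20. Members share arrays and their mean is made of the same values. The groups are therefore not independent, and the count cannot be weighed against that rate. The fifth WT culture without serum was the highest of its group for Rtp4 (6.20, next 4.56), Usp18 (5.42, next 4.64), Cmpk2 (4.33, next 4.05) and the mean of the members (5.75, next 5.40). The second TG culture without serum was the lowest for Ifih1 (5.35, next 5.44) and Mx1 (3.79, next 3.96), and the fourth WT culture without serum was the highest for Mx1 (4.10, next 3.96). With serum, the sixth TG culture was the highest for Irf1 (6.10, next 5.74) and Irgm1 (7.96, next 7.45) and the lowest for Oasl1 (5.73, next 6.00), and it was also at -0.52 from the set mean in the cardiac myocyte markers and at 0.30 in the fibroblast markers. The first WT culture with serum was the highest for Irf1 (5.92, next 5.76), the seventh TG culture the lowest for Eif2ak2 (6.58, next 6.83), the second TG culture the lowest for Zbp1 (4.13, next 4.47), and the fifth TG culture the highest for the mean of the members (5.22, next 5.14).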

How the results depend on the processing

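No setting called a member between TG and WT myocytes, with or without serum, or in the interaction. Without serum, the count of members at an unadjusted p under 0.05 was 1, and 0 with quantile normalization again, centring, array weights or dim probe sets left out, and 2 in the fit over 25 arrays. It was 0 to 4 over arrays left out, being 0 without WT culture 1 or 5, 4 without WT culture 4, and 2 without WT culture 2 or TG culture 1, 4 or 6. Members lower in TG were 15 of 17 with dim probe sets left out and 16 to 29 over arrays left out, with a median of -0.11 to -0.0097. With serum, the count was 3 with quantile normalization, centring or dim probe sets left out and 2 to 6 over arrays left out (2 without WT culture 2 or 7 or TG culture 7, 3 without TG culture 3, 4 or 5). Members lower in TG were 10 with quantile normalization, 9 with centring (median 0.044) or, of 16, with dim probe sets left out, and 14 to 19 over arrays left out, with a median of -0.014 to 0.012. The interaction count was 0 with array weights and 0 to 3 over arrays left out (0 without WT culture 5 without serum). Whether equal culture numbers mark paired cultures is not known. With the number as a replicate block the counts were 0 without and 2 with serum, and by rank 16 lower in WT and 14 in TG myocytes. By rank, members lower were 16 to 21 in WT and 14 to 17 in TG myocytes, and members higher 1 to 2 and 2 to 3, over arrays left out. With log2 values in place of ranks, 13 were lower and 5 higher in WT and 11 lower and 5 higher in TG myocytes, on a scale that differed between the sets. Stat2, Irf1, Irf9, Ddx58 and Isg20 then were not called lower in either genotype, nor Bst2, Ifit2 and Parp14 in WT, nor Oasl1 and Irf7 (-0.25) in TG myocytes, where Trim30a (0.24) was not called higher. Over arrays left out, the TG minus WT difference without serum was -0.34 to 0.019 for Irf7, -0.39 to 0.087 for Rtp4, -0.18 to 0.086 for Ddx58 and -0.26 to 0.18 for Irgm1, each at its highest and above 0 without WT culture 5, and for Irgm1 also above 0 without WT culture 1 or TG culture 2 or 3. The median r between members was 0.32 with Spearman ranks and 0.18 to 0.50 over arrays left out without serum, and with serum 0.0066 with Spearman, 0.053 with centring, -0.035 for brighter members and 0.0053 to 0.029 over arrays left out. The cause of these changes was not tested. Of 31 members, 16 gave a weak signal, which limits their differences.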
